A study of Mus musculus with 2 samples.

Results

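Microglia, the resident macrophages of the brain, and leukocytes of the blood are known for a small set of microRNAs, and 7 microRNA genes of this kind were followed here in neonatal mouse cortex: Mir142, Mir146, Mir146b, Mir150, Mir155, Mir223 and Mir21a. They were found by their GENCODE M21 symbols among the 2202 microRNA genes of the count tables, and all 7 were present. Small RNA under 30 bases was sequenced of the cortex, left side, in 2 females of the B6CASTF1/J strain aged 4 days, a hybrid with C57BL/6 and castaneus parents, and the labels name neither a treatment nor a transgene. Each animal gave 1 library, and the libraries are called replicate 1 and replicate 2 after their labels. The animals are numbered separately but share a donor record, and whether they were littermates is not stated. There is 1 group, so the comparisons below are among the 7 genes, against all other microRNA genes and between the animals, and no test between conditions exists.

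A microRNA is cut from a hairpin transcript by Drosha and Dicer and guides an Argonaute protein to messenger RNAs that pair with its seed, bases 2 to 8 of the mature strand. Mir142 and Mir223 are known as haematopoietic genes, Mir223 mainly of neutrophils and other myeloid cells and Mir142 of nearly all leukocytes. Mir150 is known from mature lymphocytes, where it targets Myb. Mir146 and Mir155 are known as targets of NF-kB signalling that act in opposite ways in inflammation: Mir146 damps it through Traf6 and Irak1, and Mir155 sustains it, partly through loss of Socs1 and Inpp5d. Mir146b is a relative of Mir146 at another locus. Mir21a is induced in activated myeloid cells but is also known from astrocytes, vessels and many epithelia, so it is the least specific gene of the 7.

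RefSeq mature sequences (build GRCm38.p6) were matched for 7 of 7 genes, 13 products in all, between 21 and 23 bases long. The products below are shown because they set which genes share a seed and which could take each other's reads. They run 5′ to 3′ with the seed in capitals.
miR-21a-5p: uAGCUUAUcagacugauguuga
miR-21c: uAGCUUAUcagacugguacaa
miR-146a-5p: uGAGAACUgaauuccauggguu
miR-146b-5p: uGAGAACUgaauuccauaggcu
miR-150-3p: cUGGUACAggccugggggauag
miR-155-5p: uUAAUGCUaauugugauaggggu
miR-142a-5p: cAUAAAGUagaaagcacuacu
miR-142a-3p: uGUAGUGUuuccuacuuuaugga
miR-142b: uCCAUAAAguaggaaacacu
miR-223-3p: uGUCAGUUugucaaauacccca

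The 13 products carried 12 distinct seeds. The only seed shared within the 7 genes was that of miR-146a-5p, from Mir146, and miR-146b-5p, from Mir146b. These differ by 2 substitutions, G18A and U21C, counted from 1 at the 5′ end of miR-146a-5p, and their first 17 bases are identical. Outside the 7 genes, miR-21c shared the seed of miR-21a-5p and its first 15 bases. The other products shared their seed with no other mature sequence of the RefSeq table. These statements cover the 13 products only, 1 for Mir150 and 2 for each of the other genes. For Mir150 the only product found was miR-150-3p, so the seed of the other arm of its hairpin was not examined. None of the 6 hairpins found in that table shared 22 bases with another hairpin there. The hairpin of Mir150 was not found in it and was not compared.

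The counts are whole reads per hairpin gene on the annotated strand, so both arms of a hairpin are added up. Levels are CPM, counts scaled to a total of 1000000 over the microRNA genes of each library. They are not divided by length, since each read stands for a short product of nearly fixed size. Replicate 1 held 3555469 microRNA counts and replicate 2 held 2761003, which puts 1 CPM at 3.56 and 2.76 reads. A gene with no read could still have up to 3 counts, or 0.844 and 1.09 CPM. A list of 12 neuron-enriched genes was looked at as a sign of neural tissue. It does not bear on the brain region or side that the label names. Of the 12, 9 reached 2 CPM in both libraries, led by Mir137 at 14397 and 13672 CPM, against 20.4% of all 2202 microRNA genes. The others were the 3 copies of Mir124a, at 0.724 to 3.62 CPM. Reads that mapped to several places, 45.8% and 41.0% of the libraries, were assigned to no gene. Of 5 genes of striated muscle, Mir206 had 125 and 39 counts, or 35.2 and 14.1 CPM. The others, 2 copies each of Mir1a and Mir133a, were at 0 in both libraries, where reads that fit both copies would not be counted.

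The most abundant of the 7 genes was Mir21a (ENSMUSG00000065455.1). It had 10951 counts in replicate 1 and 3162 in replicate 2, or 3080.0 and 1145 CPM, and a mean of 2113 ± 1368 CPM (SD, n = 2 here and below). It ranked 77 of all 2202 genes by mean level, 61 in replicate 1 and 104 in replicate 2. Replicate 1 was the higher library by far, and the SD between the animals was 1368 CPM against a mean of 2113. The hairpin spans 86584067 to 86584158 of chromosome 11, minus strand (mm10), within an untranslated region of the last exon of Vmp1, a gene of autophagy. Of the reads on genes with the seed of miR-21a-5p, all came from Mir21a, since Mir21c had no read in either library.

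Mir146 (ENSMUSG00000065601.1) had 2100 and 1970 counts in replicates 1 and 2, or 591 and 714 CPM, with a mean of 652 ± 86.9 CPM and rank 124. Both libraries lay close together, with replicate 2 the higher. The hairpin spans 43374397 to 43374461 of chromosome 11, minus strand, overlaps no other annotated gene, and lies 45789 bases from Pttg1, the nearest protein-coding gene. Mir146b (ENSMUSG00000070127.2), in an intron of Mfsd13a (chromosome 19, 46342762 to 46342870, plus strand), had 13 counts in replicate 1 and 2 in replicate 2. These are 3.66 CPM (exact Poisson interval 1.95 to 6.25) and 0.724 CPM (0.0877 to 2.62), and it was the lowest of the 7 genes in both libraries. Mir146 thus held 99.4% of the reads on genes with their common seed in replicate 1 (95% Wilson interval 99.0 to 99.6) and 99.9% in replicate 2 (99.6 to 99.97). Their products differ at 2 bases, so the few reads of Mir146b are uncertain.

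Mir150 (ENSMUSG00000065495.1), the lymphocyte gene, had 1410 and 900 counts, or 397 and 326 CPM, with a mean of 361 ± 49.9 CPM and rank 153. It was somewhat higher in replicate 1. The hairpin spans 45121757 to 45121821 of chromosome 7, plus strand, outside other annotated genes. Mir5121, a microRNA gene 5097 bases away on the minus strand, had 115 and 34 counts, or 32.3 and 12.3 CPM.

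Mir155 (ENSMUSG00000065397.1) had 232 and 240 counts, or 65.3 and 86.9 CPM, with a mean of 76.1 ± 15.3 CPM and rank 237. Replicate 2 was the higher library, as for Mir146. The hairpin spans 84714140 to 84714204 of chromosome 16, plus strand, within an exon of its noncoding host Mir155hg.

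Mir142 (ENSMUSG00000105196.1) had 109 and 133 counts, or 30.7 CPM (exact Poisson interval 25.2 to 37.0) and 48.2 CPM (40.3 to 57.1), with a mean of 39.4 ± 12.4 CPM and rank 268. The counting intervals of the libraries did not overlap, and replicate 2 was higher. The hairpin spans 87756864 to 87756927 of chromosome 11, plus strand, between exons of its noncoding host Mir142hg. Mir142b is annotated on the other strand across the same bases, from 87756841 to 87756955. On its own strand Mir142b had no read in either library, whereas its opposite-strand count was 109 and 133, equal to the counts of Mir142. In the column read as counts on either strand Mir142 stood at 0 in both libraries, so its level rests wholly on the strand being kept. For the other 6 genes the either-strand and annotated-strand counts were equal, and none of the 7 had a read on the opposite strand.

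Mir223 (ENSMUSG00000076066.1), the myeloid gene, had 75 and 30 counts, or 21.1 CPM (16.6 to 26.4) and 10.9 CPM (7.33 to 15.5), with a mean of 16.0 ± 7.23 CPM and rank 306. Replicate 1 was higher, without overlap of the counting intervals. The hairpin spans 96242817 to 96242926 of chromosome X, plus strand, within an exon of the noncoding F630028O10Rik. The nearest protein-coding gene is Vsig4, known as a complement receptor of tissue macrophages, 4277 bases away.

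**Figure D1:**
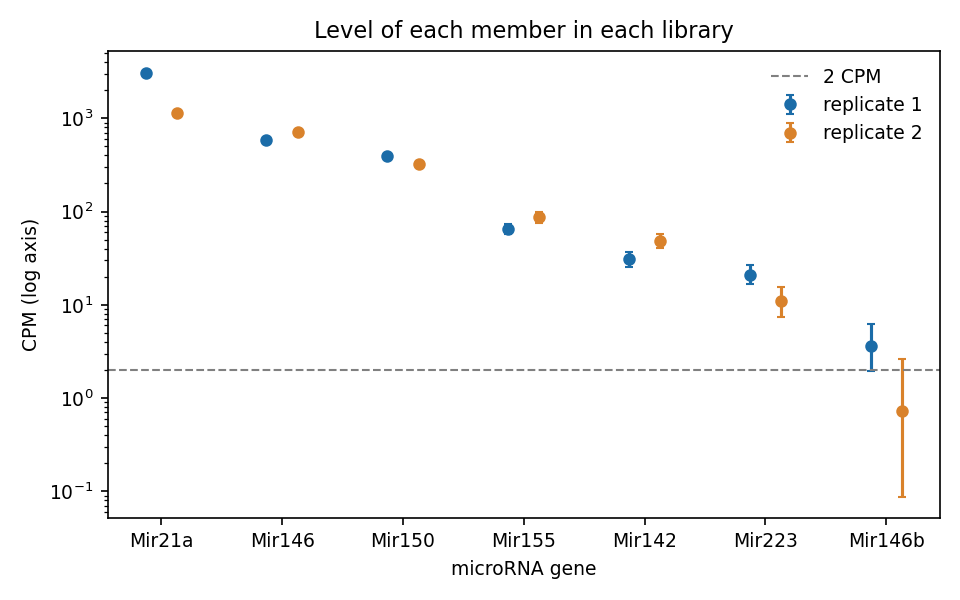
Level of each of the 7 genes in CPM (log axis) in replicate 1 (blue) and replicate 2 (orange), with exact 95% Poisson intervals that cover counting error only. The order from Mir21a to Mir146b is the same in both libraries, and only Mir146b falls below the dashed line at 2 CPM, in replicate 2.

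The order of levels was therefore Mir21a, Mir146, Mir150, Mir155, Mir142, Mir223 and Mir146b. All 7 genes held the same place in both libraries, and in 6 of 6 neighbouring pairs the values of the animals did not overlap. The narrowest step on a fold scale was from Mir146 to Mir150, 1.80-fold by mean level, followed by the 1.93-fold step from Mir155 to Mir142. The step from Mir21a to Mir146 was 3.24-fold by mean level, but its difference of 1461 CPM barely exceeded the summed SDs of 1455 CPM.

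Detection was set at a minimum of 2 CPM in each library. By this rule 6 of the 7 genes were detected, against 20.4% of all 2202 microRNA genes (450 genes), and Mir146b was not. Among detected genes the median level was 89.2 CPM. Mir21a, Mir146 and Mir150 lay above it, and the other 4 genes below. In a bulk sample fewer cells of a type and less RNA per cell cannot be told apart.

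**Figure D2:**
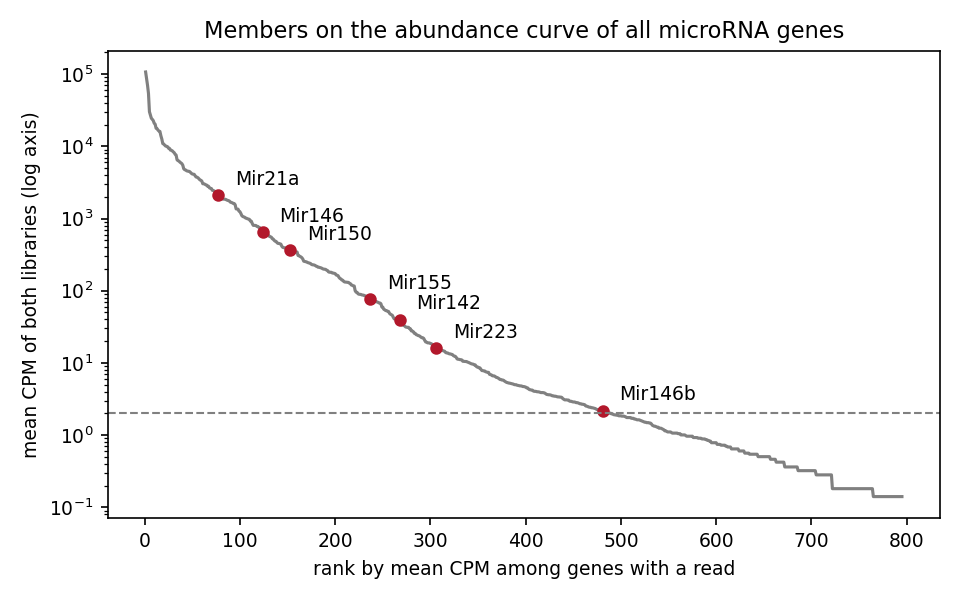
Mean CPM of both libraries (log axis) against rank for all microRNA genes with a read (grey line), with the 7 genes as red points and 2 CPM as a dashed line. The genes run from rank 77 for Mir21a to rank 481 for Mir146b.

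The 7 genes together held 0.419% of microRNA counts in replicate 1 (95% Wilson interval 0.412 to 0.426) and 0.233% in replicate 2 (0.228 to 0.239), a mean of 0.326% ± 0.131. Their summed level was 1.80-fold higher in replicate 1. The difference lay in Mir21a, which held 73.5% of the counts of the 7 genes in replicate 1 (72.8 to 74.2) and 49.1% in replicate 2 (47.9 to 50.3). Without Mir21a the other 6 genes held 0.111% (0.107 to 0.114) and 0.119% (0.115 to 0.123), and were 1.07-fold higher in replicate 2. Mir146 held 14.1% of the 7-gene counts in replicate 1 and 30.6% in replicate 2, and Mir150 held 9.47% and 14.0%. Mir155, Mir142, Mir223 and Mir146b held 3.73% or less each in either library.

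**Figure D3:**
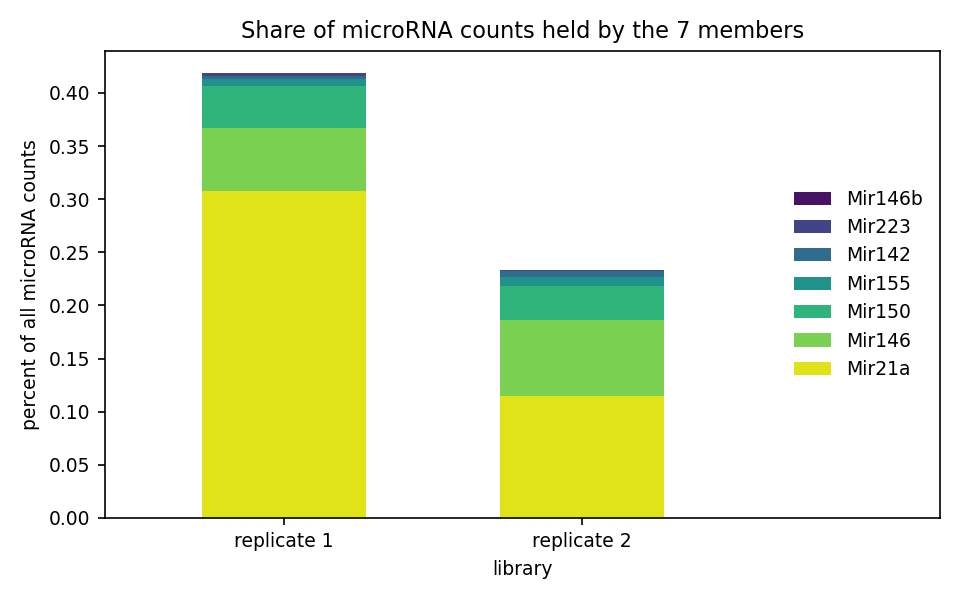
Percent of all microRNA counts held by the 7 genes in each library, stacked by gene. The part of Mir21a is 0.308% in replicate 1 and 0.115% in replicate 2, while the others sum to 0.111% and 0.119%.

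The difference between the animals was set out as the log2 ratio of replicate 2 over replicate 1 on TMM-scaled counts, where TMM is edgeR's trimmed mean of M-values, with exact counting intervals. Each animal has 1 library, so the ratio compares libraries and has no replicate check. Of the 7 genes, 2 were at least 2-fold higher in replicate 1, Mir21a and Mir146b, and none was so in replicate 2. Among the 525 genes with 10 or more reads over both libraries, 12.6% passed this fold towards replicate 1 and 11.2% towards replicate 2, or 23.8% in all. Mir21a was 2.62-fold higher in replicate 1 (log2 ratio -1.39, interval -1.45 to -1.33). Mir146b was 4.09-fold higher there on 13 and 2 reads (-2.03, -5.49 to -0.15). Mir223 stood at -0.91 (-1.58 to -0.29), short of 2-fold.

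The other 4 genes differed less. Mir150 had a log2 ratio of -0.24 (-0.37 to -0.12). Mir146 stood at 0.31 (0.22 to 0.40), Mir155 at 0.45 (0.19 to 0.72) and Mir142 at 0.69 (0.31 to 1.07), all higher in replicate 2. The counting interval excluded 0 for 7 of 7 genes, 4 towards replicate 1 and 3 towards replicate 2. Over the 525 genes it excluded 0 for 55.2%, 28.6% towards replicate 1 and 26.7% towards replicate 2, and it is narrower for genes with more reads. These intervals leave out the spread between animals. The median ratio of the 7 genes was -0.24, that of Mir150, beside 0.007 over the 525 genes. Without Mir21a, or without Mir146b and its few reads, the median of the remaining 6 was 0.033.

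**Figure D4:**
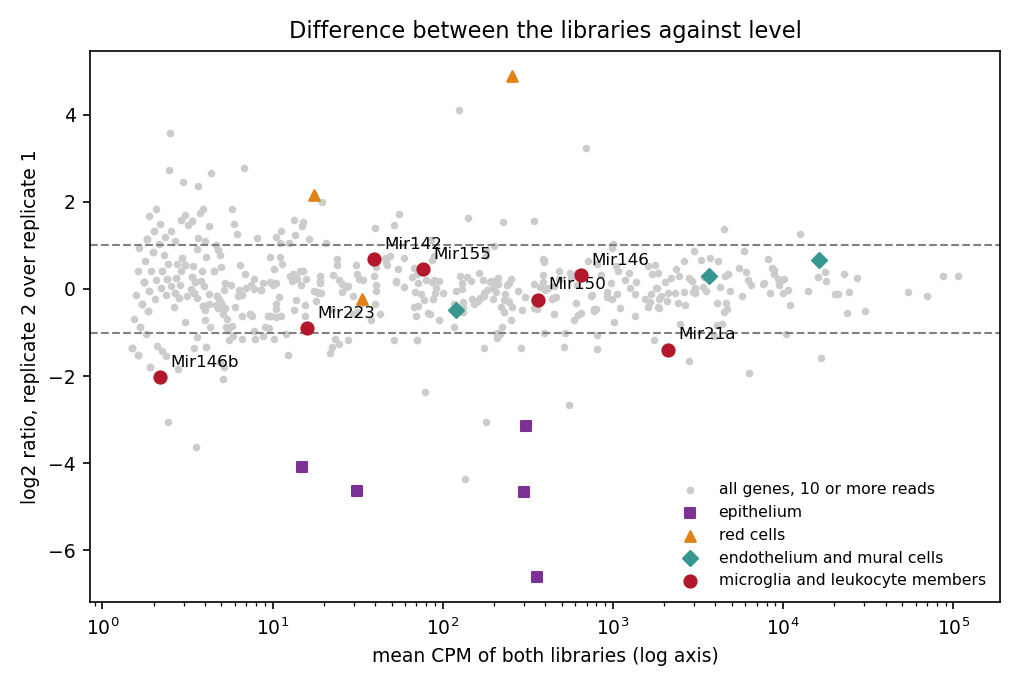
Log2 ratio of replicate 2 over replicate 1 against mean CPM (log axis) for the 525 genes with 10 or more reads (grey), with the 7 genes in red and genes of other cell types in other colours. Dashed lines mark 2-fold. Mir21a lies at -1.39, the epithelial genes lie between -6.62 and -3.14, and the red cell gene Mir451a lies at 4.89.

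Markers of other cell types were compared between the libraries in the same way. All 5 epithelial genes (Mir200a, Mir200b, Mir200c, Mir141 and Mir429) were at least 2-fold higher in replicate 1, against 12.6% of the 525 genes. Their summed share was 0.193% in replicate 1 and 0.00938% in replicate 2, and none was at 0 in either library. Among the 12 neuron-enriched genes, 2 were at least 2-fold higher in replicate 1, Mir128-1 (2.04-fold) and Mir124a-3 (9 and 2 counts). In replicate 2 it was 1, Mir124a-1 (5 and 10 counts). These counts are near the shares over the 525 genes, 12.6% and 11.2%. Short of 2-fold, Mir138-1 and Mir138-2 were higher in replicate 2 (log2 ratios 0.87 and 0.95). Mir132 and Mir128-2 were higher in replicate 1 (-0.82 and -0.80). The 12 summed to 4.27% and 3.20%. Mir206 of striated muscle was 2.40-fold higher in replicate 1. Of 3 red cell genes 2 were at least 2-fold higher in replicate 2, against 11.2% of the 525 genes. They were Mir451a (16.9 and 491 CPM) and Mir144 (6.47 and 28.6 CPM), while Mir486 had 36.8 and 30.4 CPM. The red cell genes summed to 0.00602% and 0.0550%, and none was at 0. The 5 vascular genes summed to 1.63% and 2.38%, led by Mir126a at 12842 and 19723 CPM. Within that list Mir143 had 3337 and 3994 CPM and was also higher in replicate 2, whereas Mir145a had 140 and 97.8 CPM and was higher in replicate 1 (log2 ratio -0.48, -0.70 to -0.26). Mir145b had 1 read in replicate 1 and none in replicate 2, and Mir126b was at 0 in both. The part of these cell types in the differences of the 7 genes was not tested. Mir122 of liver had 63.3 and 78.6 CPM.

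A further list of 6 microRNA genes linked to leukocytes or microglia was set beside the 7. It held Mir342, in the gene Evl and known from myeloid and B cells, Mir221 and Mir222, a pair that restrains Kit and the cell cycle inhibitor Cdkn1b, Mir511, within the macrophage mannose receptor gene Mrc1, Mir147, induced by Toll-like receptors in macrophages, and Mir32. Of these 5 of 6 were detected, against 20.4% of all 2202 microRNA genes, and the 6 held 0.965% and 1.04% of microRNA counts. Most of this was Mir342, with 26746 of 34324 counts in replicate 1 and 22072 of 28760 in replicate 2. Mir342 led with 7522 and 7994 CPM and Mir221 had 1631 and 2052 CPM, so that Mir342 stood above Mir21a in both libraries. Mir222 had 421 and 297 CPM and Mir32 had 71.4 and 66.6 CPM. Mir511 had 20 and 12 counts (5.63 and 4.35 CPM) and Mir147 had 7 and 6 counts (1.97 and 2.17 CPM), both below the level of Mir223 in each library. None of the 6 was 2-fold apart between the animals, against 23.8% of the 525 genes, and with 6 genes no weight is placed on this. Mir222 was 1.38-fold higher in replicate 1, and Mir221 1.29-fold and Mir342 1.09-fold higher in replicate 2, with counting intervals that excluded 0. Over the 525 genes the interval excluded 0 for 55.2%. The intervals of Mir32, Mir511 and Mir147 included 0.

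**Figure D5:**
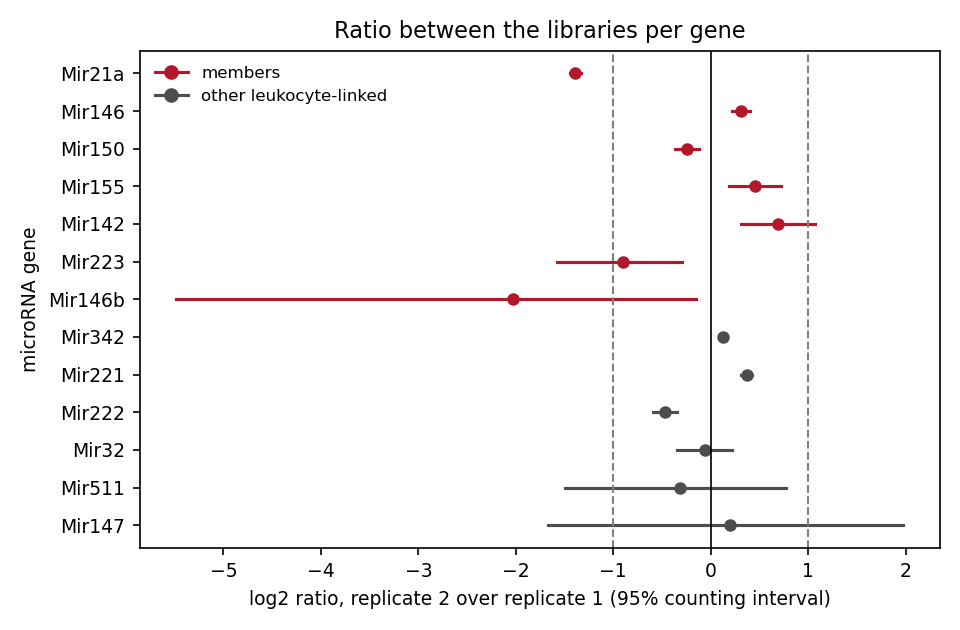
Log2 ratio of replicate 2 over replicate 1 with 95% counting intervals for the 7 genes (red) and the 6 further genes (grey). Mir21a and Mir146b lie past the dashed line at -1, and the interval of Mir146b, on 15 reads in all, is the widest.

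The genes most like each of the 6 detected members were sought by the distance of log2(CPM + 1) over the 2 libraries, among the other 449 detected genes. With 2 points this measures a like level and a like ratio, no more. The nearest to Mir21a was Mir323 (2440 and 1048 CPM, distance 0.36), to Mir146 Mir667 (548 and 685 CPM, 0.12) and to Mir150 Mir186 (381 and 309 CPM, 0.10). The nearest to Mir155 was Mir122 (distance 0.15), to Mir142 Mir679 (34.3 and 47.1 CPM, 0.16) and to Mir223 Mir7070 (19.1 and 12.0 CPM, 0.18). Mir323, Mir667 and Mir679 lie on chromosome 12, where none of the 7 genes lies. Many other detected genes lie there too, such as Mir127, Mir382 and Mir770, and their share of the candidates was not counted.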

How the data were processed

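The deposited tables hold raw counts of reads per microRNA gene, 1 table per library, made by the authors on mm10 with GENCODE M21, per the file headers in the notes deposited with each library. The tables have no column names. Their 3 columns were read as either, annotated and opposite strand from layout and values, and the annotated strand was used. Aligner, counter and trimming are not given in the sources used here, and castaneus variants may affect mapping in ways not tested here. Of 2202 gene IDs, 2202 matched M21. Totals that name no gene (69.6% of reads in replicate 1 and 72.2% in replicate 2) stayed out of library sizes.

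CPM used the sum over microRNA genes. Ratios used TMM factors (edgeR 4.0.16) fitted on genes with at least 10 reads over both libraries, with 0.5 added to each count, and exact Clopper-Pearson intervals (SciPy 1.17.1). Intervals and limits cover counting error only, since amplified reads are not independent molecules. With 1 group of 2 libraries no test was run. The 7 genes and the lists were chosen with earlier results of these data known. Genes were named as members, list genes, nearest genes by level, microRNA genes within 10 kb, seed relatives and hosts. Mir486b matched no gene. Alternatives covered strand, denominator, detection minimum, scaling, added count, minimum count and leaving out each library or Mir21a.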

Additional observations from a re-analysis of the deposited data

Results flagged for a closer look

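Mir142b drew attention because reads lay in the opposite-strand column, which the levels do not use. Its opposite-strand counts were 109 in replicate 1 and 133 in replicate 2, above the 3 counts that a count of 0 allows and equal to the annotated-strand counts of Mir142, which it overlaps.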

How the results depend on the processing

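The share of the 7 genes, 0.326% of microRNA counts, was 0.0961% of all reads in the tables, 0.480% without the let-7 family in the denominator and 0.115% without Mir21a. It ranged from 0.233% to 0.419% when either library was left out. The count of detected genes among the 7 stayed between 5 and 7 under all alternatives. It was 5 on either-strand counts, where Mir142 fell to 0, and 7 at 1 read or more or without replicate 2. The share of all 2202 microRNA genes was computed only at the main setting, 20.4%. At least 1 read was seen for 719 genes in replicate 1 and 727 in replicate 2. The count of genes at least 2-fold apart was 1 (Mir21a) at a minimum summed count of 20 or 100, which leaves out Mir146b. Among all microRNA genes compared at these minimum counts, 20.5% and 16.2% were at least 2-fold apart. At 1.5-fold the count was 4 of the 7 genes, against 37.7% of all microRNA genes compared. The median log2 ratio was 0.033 at these minimum counts and also without Mir21a, the last an alternative chosen after seeing the data. Under other scalings or strand columns 20 of 21 levels of single genes stayed within the spread between the animals, the exception being Mir142 on either strand. All 42 alternative log2 ratios stayed within their counting intervals, and 7 of 7 genes kept their sign. No paired analysis was possible because there is 1 group. With 2 libraries the SD is itself imprecise. On 13 reads in replicate 1 and 2 in replicate 2, Mir146b could not be told apart from 2 CPM in either library.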
